A study of Mus musculus with 6 samples.

Results

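The clustered histone genes are the protein-coding genes whose symbols begin with Hist1h, Hist2h, Hist3h or Hist4h, and 67 of the 54532 genes in the count table carried such a symbol. They comprised 6 genes for the linker histone H1, 18 for H2A, 18 for H2B, 12 for H3 and 13 for H4. Of these, 54 lie on chromosome 13, 10 on chromosome 3, 2 on chromosome 11 and 1 on chromosome 6, and the coordinates of all 67 in the table were those of GENCODE M21 on the GRCm38 build. The symbols chose the members, and no measured value did.

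H2A, H2B, H3 and H4 form the protein core around which DNA is wound in the nucleosome, and H1 binds the DNA that links nucleosomes. Most clustered genes are expressed in S phase, when new DNA has to be packaged, and dividing granule neuron progenitors are the main proliferating cells of the newborn cerebellum. The mRNAs of these replication-dependent genes end in a short stem-loop that is bound by the protein SLBP and usually carry no poly(A) tail. Some members also yield polyadenylated transcripts. Most replacement histones encoded elsewhere in the genome are made from ordinary polyadenylated mRNAs.

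Bulk RNA of mouse cerebella at postnatal day 1 was sequenced in 6 libraries. The 3 control libraries came from Tox3 f/f littermates and the 3 mutant libraries from Nestin-cre;Tox3 f/f animals, so all 6 carried the floxed *Tox3* allele and only the mutants carried Cre, a transgene expressed in neural progenitors and their progeny. The effects of Cre itself and of the deletion cannot be told apart here, and whether each library came from 1 animal is not stated, so the p-values measure the spread between these libraries. mRNA was purified on poly-T beads, which bind poly(A) tails, so that histone mRNAs ending at the stem-loop should have been captured poorly and the levels below describe what passed this step.

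Total counts per library lay between 15391854 and 17178478, of which the 67 genes held between 0.00986% and 0.0120%. *Atoh1*, the master regulator of granule neuron progenitors, was counted 501, 491 and 481 times in control 1, 2 and 3 and 10, 4 and 4 times in mutant 1, 2 and 3 (log2 fold change -6.40 ± 0.188 SE, edgeR adjusted p = 8.85e-08). The difference in *Tox3* itself did not pass the test, at 64.3, 63.0 and 64.4 CPM (counts scaled to a common library total) in control 1, 2 and 3 and 55.3, 63.2 and 59.2 CPM in mutant 1, 2 and 3 (log2 fold change -0.11 ± 0.0647 SE, edgeR adjusted p = 0.252), and the groups overlapped, so its summed gene count did not check the labels. Genes of the Y chromosome summed to 272, 30.2 and 33.1 CPM in control 1, 2 and 3 and to 223, 30.3 and 227 CPM in mutant 1, 2 and 3. They placed both sexes in both groups, but in unequal numbers. Mutant 2 and mutant 3 stood apart in *Ttr*, a choroid plexus gene, at 6.06 and 711 CPM against 181 CPM in mutant 1 and 67.7 to 131 CPM in the controls.

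The stem-loop could be read in the annotated transcripts of 46 of the 67 genes. The histone stem-loop motif, a stem of paired bases closed by a loop of 4, was searched on the transcript strand and occurs in 87 of 58797 protein-coding transcripts of GENCODE M21, or 0.148%. Of the 46, 26 held the most frequent form, 7 held a form that was found in H4 genes alone, 6 held the form shown for *Hist1h3c*, and 2 that shown for *Hist1h4i*. The stem-loops of the members on which the results below turn are given with 5 flanking bases on each side, 5′ to 3′ as DNA, with the stem-loop in capitals.
Hist1h1c: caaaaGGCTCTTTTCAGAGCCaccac
Hist3h2ba: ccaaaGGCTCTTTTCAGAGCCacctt
Hist1h2ao: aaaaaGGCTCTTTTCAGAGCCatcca
Hist1h3c: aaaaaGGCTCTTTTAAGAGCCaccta
Hist1h4i: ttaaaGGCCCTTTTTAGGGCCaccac
*Hist1h1c*, *Hist3h2ba* and *Hist1h2ao* shared the most frequent form although their levels differed widely. The transcripts differed in how far they run past it. Those of *Hist1h1c*, *Hist3h2ba* and *Hist1h4i* extend a further 840, 169 and 330 bases and hold a poly(A) signal (AATAAA or ATTAAA) in their last 50 bases, whereas those of *Hist1h2ao* and *Hist1h3c* stop 31 and 74 bases past the stem-loop with no such signal.

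Few clustered genes gave enough counts for a test. Only 9 of 67 passed edgeR's filter on low counts, namely *Hist1h1c* (H1), *Hist3h2a* and *Hist1h2ao* (H2A), *Hist3h2ba*, *Hist2h2be*, *Hist1h2bc* and *Hist1h2bj* (H2B), *Hist1h3c* (H3) and *Hist1h4i* (H4). These 9 held 92.6% of the counts on the group. A further 47 genes had counts but did not pass, and 11 were listed at 0 in every library, which allows up to 3 counts or 0.196 CPM per library. Among those at 0 were *Hist1h1t*, *Hist1h2aa* and *Hist1h2ba*, which encode histones of the testis. Of 5 other testis genes listed, *Tnp1* and *Prm2*, genes of maturing sperm, were likewise at or near 0, but 1 of the 5 passed the filter. The 5 summed to 1.03 to 3.55 CPM per library. On FPKM values, which allow for gene length, *Hist3h2ba* was the most abundant member at 63.6 FPKM in controls, followed by *Hist1h1c* at 8.99, *Hist1h2bc* at 6.58, *Hist1h4i* at 6.39, *Hist3h2a* at 6.23 and *Hist2h2be* at 6.12. The last 4 of these lay within the spread between control libraries of one another.

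Of the 9 tested genes, 1 was called lower in the mutants and 1 higher, a call requiring a log2 fold change of more than 0.5 in size with an adjusted p under 0.01. Across all 17505 tested genes, 3.63% were called lower and 3.03% higher, or 6.66% in either direction. An unadjusted p under 0.05 was found for 4 of the 9, beside 6499 of all 17505 tested genes. Of the 7 that were not called, 2 had one, *Hist1h4i* and *Hist2h2be*. The mutant and control libraries did not overlap for 3 of the 9 on the lower side and 1 on the higher side, against 20.1% and 20.4% of all tested genes. The median log2 fold change of the 9 was -0.36, beside -0.01 over all tested genes, and the fitted values were split between 5 below and 4 above 0. Lower levels in bulk tissue can come from fewer cells of a type or from less RNA per cell, and these cannot be told apart. A filter on low counts keeps genes that are high in either group, so the 9 do not stand for all members.

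**Figure D1:**
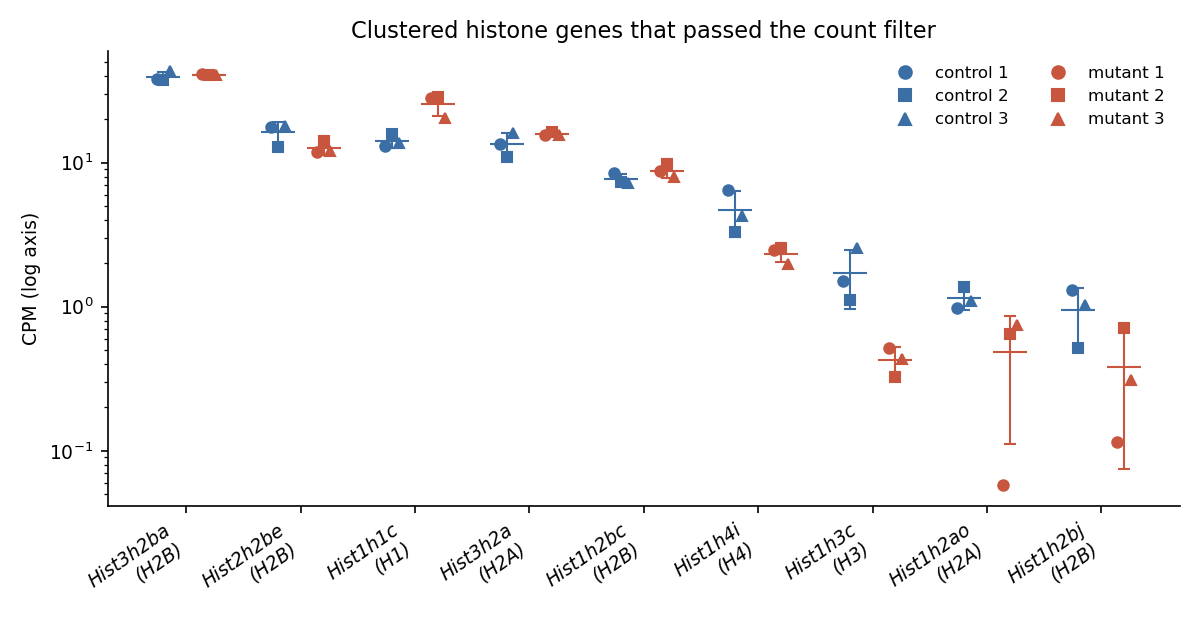
CPM on a log axis of the 9 clustered histone genes that passed the filter, with 1 point per library, a horizontal line at the group mean and bars of 1 SD. The mutant libraries lie above all controls for Hist1h1c and below all controls for Hist1h4i, Hist1h3c and Hist1h2ao, and the groups overlap for the other 5 genes.

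The H1 class was higher in mutants through a single gene. *Hist1h1c* (ENSMUSG00000036181, chr13:23738808-23740367, plus strand) encodes the linker histone H1.2, and its counts were 200, 243 and 212 in control 1, 2 and 3 and 488, 438 and 328 in mutant 1, 2 and 3. Each mutant library lay above each control library. The level rose 1.82-fold, from 14.2 ± 1.48 to 25.7 ± 4.58 CPM (SD, n = 3 per group; log2 fold change 0.86 ± 0.139 SE, edgeR adjusted p = 0.00169). The call was lost without control 3, at an adjusted p of 0.0112, and when the change was tested against a log2 fold change of 0.5 with edgeR's glmTreat, at 0.124. No window of 150 bases, the length of a read, in its transcript occurs in another gene, and its exon overlaps no other. The remaining 5 H1 genes had 16, 5 and 24 counts in control 1, 2 and 3 and 8, 9 and 15 in mutant 1, 2 and 3 when summed, and these groups overlapped. *Hist1h1e*, the next in FPKM, had 12, 4 and 19 counts in controls and 5, 2 and 10 in mutants, and *Hist1h1b*, *Hist1h1a* and *Hist1h1d* had at most 5 in any library.

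H2A counts came almost wholly from *Hist3h2a* (ENSMUSG00000078851, chr11:58954685-58956830, plus strand), an H2A gene in the small cluster on chromosome 11. It was counted 207, 167 and 251 times in control 1, 2 and 3 and 271, 250 and 249 times in mutant 1, 2 and 3. Control 3 fell among the mutant values, so the groups overlapped, and the difference did not pass the test (log2 fold change 0.23 ± 0.135 SE, edgeR adjusted p = 0.253). Its exons overlap those of *Trim17* on the same strand, and 28.0% of its 150-base windows occur there too, so reads of both genes may be mixed. *Hist1h2ao* (chr13:21810465-21810944, plus strand) had 15, 21 and 17 counts in controls and 1, 10 and 12 in mutants. All mutant libraries were below all controls and mutant 1 was far below the other mutants, but at these counts the fall was not called (log2 fold change -1.25 ± 0.587 SE, edgeR adjusted p = 0.152). Other H2A genes share 91.5% of its windows, so its counts may belong to any of several copies. Of the 16 H2A genes that were not tested, 3 were at 0 and 13 had counts, none of more than 13 in a library.

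H2B was the most abundant class. *Hist3h2ba* (chr11:58948920-58949533, plus strand), which neighbours *Hist3h2a*, was counted 582, 574 and 669 times in controls and 713, 620 and 650 times in mutants. The groups overlapped and their means were nearly equal at 63.6 ± 4.99 FPKM in controls and 65.9 ± 0.910 FPKM in mutants (log2 fold change 0.05 ± 0.0775 SE, edgeR adjusted p = 0.707). *Hist1h2bc* (chr13:23684199-23692908, plus strand) had 130, 113 and 112 counts in controls and 151, 151 and 127 in mutants, and control 1 lay within the mutant range on the CPM scale (log2 fold change 0.20 ± 0.138 SE, edgeR adjusted p = 0.326). *Hist2h2be* (chr3:96221119-96223738, plus strand) had 273, 198 and 279 counts in controls and 205, 216 and 192 in mutants. Control 2 sat among the mutants and the difference was not called (log2 fold change -0.36 ± 0.142 SE, edgeR adjusted p = 0.0923). *Hist1h2bj* (chr13:22043214-22043676, plus strand) was scarce, with 20, 8 and 16 counts in controls and 2, 11 and 5 in mutants, and mutant 2 lay above control 2 (log2 fold change -1.33 ± 0.604 SE, edgeR adjusted p = 0.140). The 3 abundant H2B genes thus moved little in either direction, and the 14 that were not tested held 29, 22 and 49 counts in controls and 26, 33 and 23 in mutants.

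H3 was the class whose summed level differed most between the groups. *Hist1h3c* (ENSMUSG00000069310, chr13:23744973-23745602, minus strand), 1 of the many genes for the same replication-dependent H3 proteins, was counted 23, 17 and 40 times in controls and 9, 5 and 7 times in mutants. Each mutant library lay below each control, and the level fell from 1.72 ± 0.757 to 0.427 ± 0.0969 CPM (3.96-fold lower; log2 fold change -1.99 ± 0.437 SE, edgeR adjusted p = 0.00853). *Hist1h3c* passed the filter on low counts through its controls alone, so the filter favoured this direction and this lack of overlap. The call depended on all 6 libraries: leaving out any 1 of them gave adjusted p-values from 0.0102 without control 2 to 0.0424 without control 3, with log2 fold changes from -2.22 to -1.58. It was also lost against a log2 fold change of 0.5 with glmTreat, at an adjusted p of 0.0910, and DESeq2 gave it no adjusted p because its counts were too low for that tool's own filter.

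The other H3 genes had too few counts for a test. All 9 H3 genes with any counts had a lower mean CPM in mutants than in controls, beside 52.2% of the 14758 genes in the table that had counts but were not tested, and the groups overlapped for 7 of the 9. *Hist1h3a* had 6, 19 and 4 counts in controls and 1, 4 and 0 in mutants, *Hist1h3h* had 5, 9 and 4 against 0, 0 and 1, and *Hist1h3e* had 13, 9 and 4 against 4, 4 and 6. Of these genes, *Hist1h3h* was lower in every mutant than in every control, and 90.5% of its windows occur in other H3 genes. The 11 H3 genes other than *Hist1h3c* together had 42, 51 and 30 counts in control 1, 2 and 3 and 12, 16 and 20 in mutant 1, 2 and 3, without overlap. The remaining H3 members, *Hist1h3b*, *Hist2h3b* and *Hist2h3c1*, were at 0 in every library.

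H4 was likewise lower but varied more among libraries. *Hist1h4i* (ENSMUSG00000060639, chr13:22040636-22041362, minus strand), the main source of H4 counts, had 100, 51 and 66 counts in controls and 43, 39 and 32 in mutants. Control 1 was well above the other controls, and all mutants lay below all controls. The level was 4.69 ± 1.64 CPM in controls and 2.34 ± 0.301 CPM in mutants (log2 fold change -1.001 ± 0.271 SE, edgeR adjusted p = 0.0229), which did not reach the threshold. The difference did reach it with no filter on low counts (adjusted p = 0.00111) and with a covariate for Y-chromosome gene level (0.00427), and its adjusted p ranged from 0.00111 to 0.374 over all alternatives. *Hist1h4n* was irregular, with 21, 9 and 4 counts in controls and 20, 0 and 0 in mutants, and shares 77.2% of its windows with *Hist1h4m*, which had 1 count in all. Of the 12 H4 genes with counts, 11 had a lower mean CPM in mutants, beside 51.5% of all genes with counts. The 11 include *Hist1h4a*, whose means were all but equal at 0.0642 CPM in both groups. Of the 13 H4 genes, 5 had at most 3 counts in any library, 1 of them at 0 throughout, so the direction of several rests on a few reads.

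**Figure D2:**
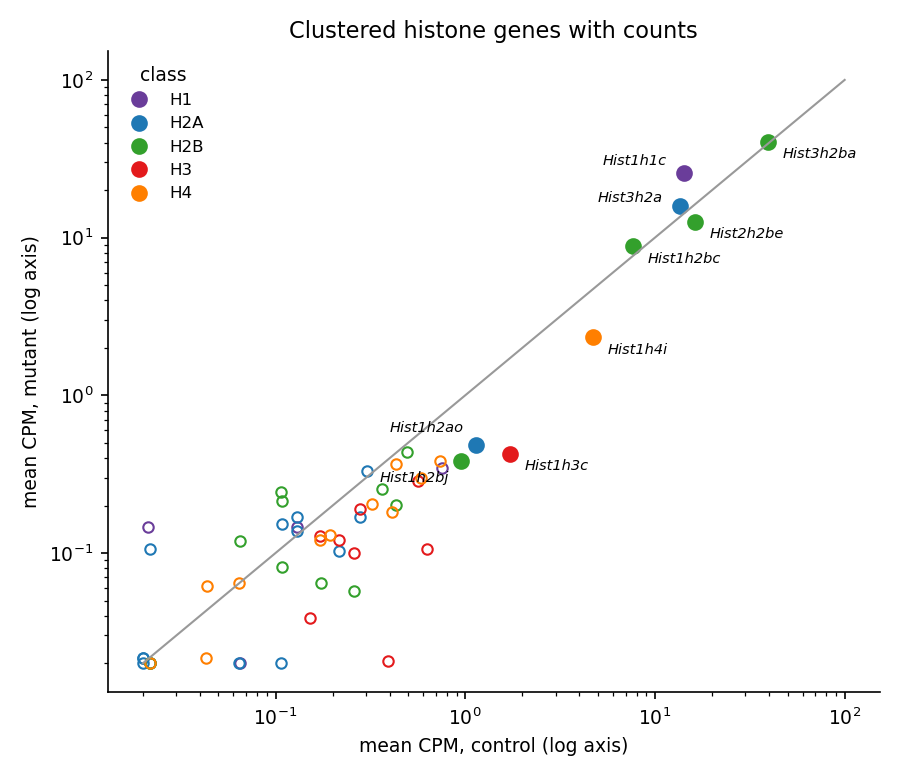
Mean CPM in mutants against mean CPM in controls, both on log axes, for the 56 clustered histone genes with counts, coloured by class; filled points passed the filter, open points did not, the line marks equal levels, and means below 0.02 CPM are drawn at 0.02. All 9 H3 points and 11 of 12 H4 points lie below the line, Hist1h4a by a margin too small to see, while Hist1h1c lies above it.

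Summed CPM over all genes of a class does not depend on how counted reads are divided among near-identical copies of that class. Reads dropped for mapping to several places would be missing from the sum, and how such reads were treated is not given. H3 summed to 65, 68 and 70 counts in control 1, 2 and 3 and 21, 21 and 27 in mutant 1, 2 and 3. The control libraries were nearly equal, and the sum was 3.09-fold lower in mutants (4.38 ± 0.137 against 1.42 ± 0.239 CPM). H4 summed to 153, 90 and 114 counts in controls and 93, 64 and 48 in mutants. The H4 libraries did not overlap on the CPM scale, although mutant 1 at 5.36 CPM came close to control 2 at 5.86 CPM, and the sum was 1.85-fold lower (7.71 ± 2.08 against 4.17 ± 1.19 CPM). Without *Hist1h4i* the remaining H4 genes had 53, 39 and 48 counts in controls and 50, 25 and 16 in mutants, which overlapped.

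H1 summed to 15.1 ± 1.04 CPM in controls and 26.4 ± 4.34 CPM in mutants, with no overlap, and without *Hist1h1c* to 0.969 ± 0.611 and 0.661 ± 0.245 CPM, with overlap. H2A and H2B showed no separation, at 16.01 ± 2.85 against 17.5 ± 0.740 CPM and 66.4 ± 6.39 against 64.2 ± 2.67 CPM. For H2A the sign depended on *Hist3h2a*, since the sum without it was 2.52 ± 0.579 CPM in controls and 1.72 ± 0.561 CPM in mutants, and for H2B it turned without control 3. All 67 genes summed to 110 ± 9.47 CPM in controls and 114 ± 7.23 CPM in mutants, so that the group as a whole hid opposite movements of its classes. No test was made on these sums.

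**Figure D3:**
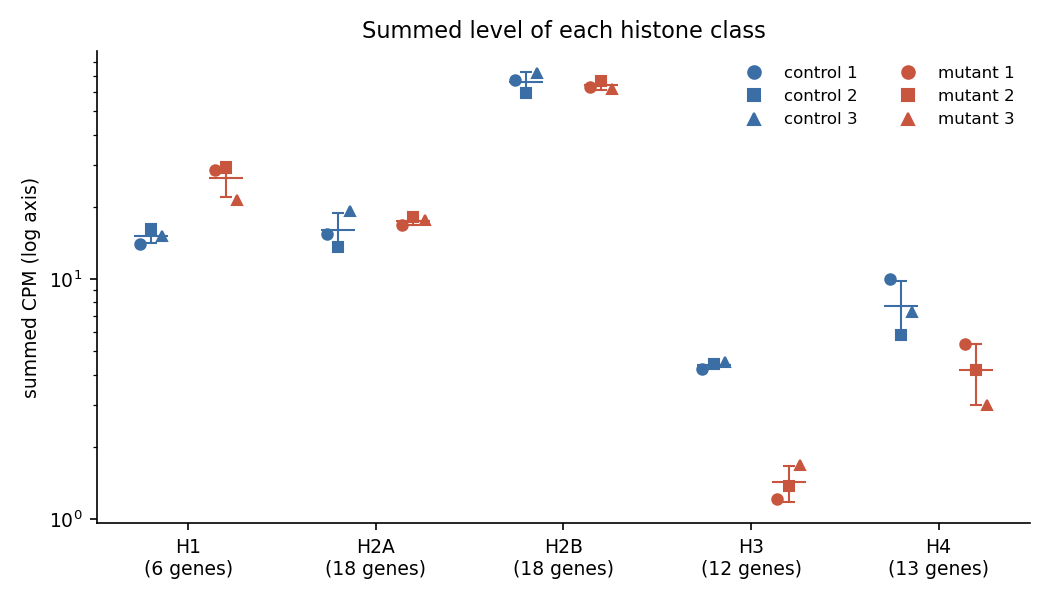
Summed CPM on a log axis of all genes of each histone class, with 1 point per library, a horizontal line at the group mean and bars of 1 SD. Mutants lie above controls for H1, where 1 gene holds most counts, below controls for H3 and H4, and among them for H2A and H2B.

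Members with longer annotated transcripts held most of the counts, through a few genes. Of the 67 genes, 23 had an annotated transcript that runs at least 100 bases past the stem-loop, 23 ended nearer to it, and 21 had no stem-loop in their model, many of which cover the coding sequence alone. The 23 extended genes held 74.1% of the counts on the group and the 23 short ones 4.57%. A poly(A) signal in the last 50 bases was present in 16 genes, which held 84.4% of the counts, and in 50.2% of all protein-coding transcripts. The shares of the extended genes and of those with the signal rested on a few members. *Hist3h2ba*, *Hist1h1c*, *Hist3h2a* and *Hist2h2be* together held 79.8% of the counts on the group. All 4 hold the signal, and all but *Hist2h2be* are extended. These shares do not allow for gene length. *Hist1h2bc* was the exception among abundant members, having no such signal in its model.

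Genes ending near the stem-loop were lower in mutants as a group, with 117, 96 and 120 counts in control 1, 2 and 3 and 57, 46 and 49 in mutant 1, 2 and 3 (7.19 ± 0.816 against 3.11 ± 0.154 CPM). The groups were far apart and stayed so without *Hist1h3c*, at 94, 79 and 80 counts against 48, 41 and 42. Within this set, the H2A and H2B genes had 50, 44 and 64 counts in controls and 20, 34 and 34 in mutants, and the H3 and H4 genes 67, 52 and 56 against 37, 12 and 15. The H2A and H2B difference rested on *Hist1h2ao* and *Hist1h2bj*, neither of which was called, since the other 12 genes had 15, 15 and 31 counts in controls and 17, 13 and 17 in mutants, which overlapped. The extended genes summed to 77.0 ± 6.32 CPM in controls and 88.1 ± 5.33 CPM in mutants, and without *Hist1h1c* to 62.9 ± 7.36 and 62.4 ± 0.927 CPM. Within the extended set, the 12 H3 and H4 genes had 144, 84 and 118 counts in controls and 75, 68 and 55 in mutants, without overlap. By class, the groups did not overlap for the 7 extended H4 genes, at 118, 73 and 101 counts in controls and 68, 56 and 43 in mutants, most of them on *Hist1h4i*, or for the 4 H3 genes ending near the stem-loop, at 32, 42 and 45 against 12, 9 and 11. They overlapped for the 5 extended H3 genes, at 26, 11 and 17 against 7, 12 and 12, and for the 5 H4 genes ending near the stem-loop, at 35, 10 and 11 against 25, 3 and 4.

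The yield of RNAs without a tail was compared between libraries, and whether it measures the poly(A) selection was not tested. Small nuclear, small Cajal body and small nucleolar RNAs, together with a list of other RNAs without a tail, summed to 115, 124 and 131 CPM in control 1, 2 and 3 and 101, 131 and 99.5 CPM in mutant 1, 2 and 3. The groups overlapped, with mutant 1 and mutant 3 below all controls and mutant 2 level with control 3. The H3 sum stood at 1.21, 1.37 and 1.68 CPM in mutant 1, 2 and 3, and that of the genes ending near the stem-loop at 3.29, 2.998 and 3.05 CPM. Mitochondrial ribosomal RNA took 0.106% to 0.108% of the counts in controls and 0.111% to 0.126% in mutants, without overlap. The part of the selection and of library quality in the histone values was not tested.

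**Figure D4:**
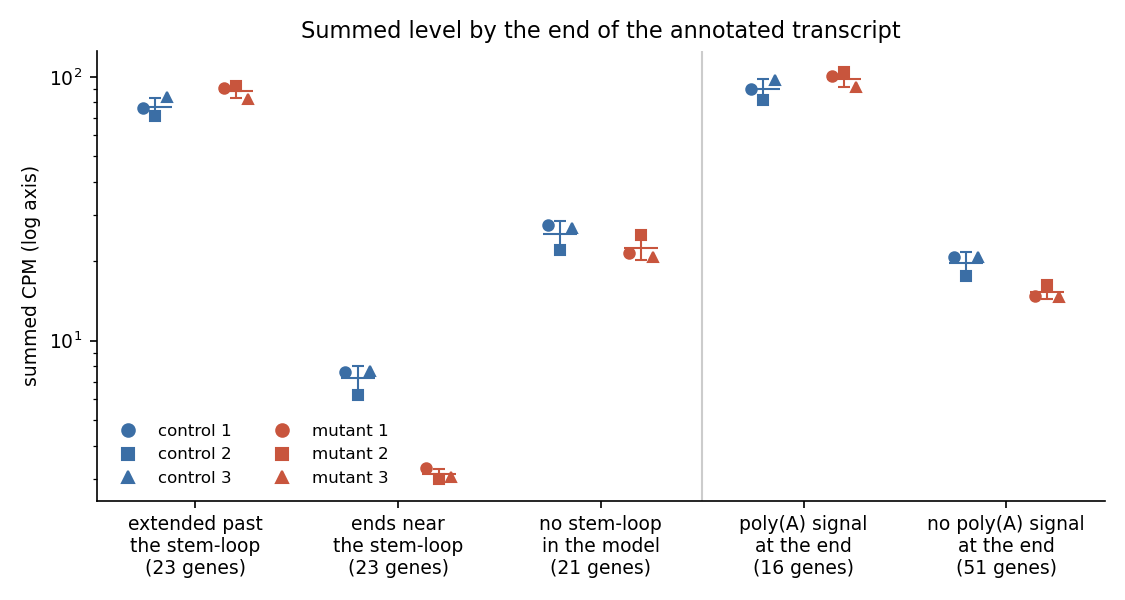
Summed CPM on a log axis of the clustered histone genes by the end of their annotated transcript, with 1 point per library, a horizontal line at the group mean and bars of 1 SD; the sets on the left of the grey line divide the 67 genes by the stem-loop, and those on its right divide them by the poly(A) signal. The 23 genes ending near the stem-loop lie between 2.998 and 3.29 CPM in mutants and between 6.25 and 7.71 CPM in controls.

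Near-identical copies bear on which genes could be counted at all. For 5 genes of the chromosome 3 cluster, *Hist2h2aa1*, *Hist2h2aa2*, *Hist2h2bb*, *Hist2h3b* and *Hist2h3c1*, every 150-base window of the transcript also occurs in another gene, and all 5 were listed at 0 in all 6 libraries. How the authors treated reads that map to several places is not given in the sources used here, so these zeros do not show that the genes were silent. A share of at least 50% was found in 24 genes, which held 2.59% of the counts, and these were also lower in mutants, at 3.78 ± 0.226 against 2.06 ± 0.305 CPM. The class sums of the other 43 genes kept the order given above, with log2 ratios of -1.61 for H3 and -0.88 for H4. An exon of 7 genes overlaps another gene on the same strand and that of 21 genes a gene on the opposite strand, and whether the counting used strand is not given there either.

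The genes that make and process histone mRNA were lower in part. Of 22 tested genes of this kind, 3 were called lower and none higher, beside 3.63% and 3.03% of all tested genes. The median log2 fold change of the 22 was -0.18, beside -0.01 over all tested genes. An unadjusted p under 0.05 was found for 12 of the 22, beside 6499 of all 17505 tested genes. The 3 called lower were *Ccne2*, a cyclin that activates Cdk2 at the start of S phase (log2 fold change -0.67 ± 0.133 SE, edgeR adjusted p = 0.00509), *Casp8ap2*, which encodes the histone locus body protein FLASH (-0.62 ± 0.133 SE, adjusted p = 0.00760), and *Tut4*, a uridylyltransferase that acts on RNA tails (-0.53 ± 0.119 SE, adjusted p = 0.00997). None was called without control 1, control 2, mutant 1 or mutant 3, and DESeq2 called the same 3 lower and none higher. *Slbp*, whose product binds the stem-loop, stood at 54.4, 53.0 and 56.6 CPM in controls and 41.7, 40.7 and 44.6 CPM in mutants. The groups did not overlap, but the difference of -0.37 ± 0.0685 SE on the log2 scale was under the fold threshold (adjusted p = 0.00361), as was that of *Cdk2* at -0.48 ± 0.0726 SE (adjusted p = 0.00115), which passed without control 3 and with the Y-gene covariate, at -0.52 and -0.50. The calls of *Tut4* and *Casp8ap2* were also lost without control 3, and that of *Tut4* with library size alone and with that covariate. *Lsm11*, a subunit of the U7 snRNP that cuts histone pre-mRNA, was higher in every mutant, at 119, 111 and 135 CPM against 90.2, 82.4 and 93.7 CPM in controls (log2 fold change 0.46 ± 0.0783 SE, adjusted p = 0.00239), again under the fold threshold. It passed without mutant 2, at a log2 fold change of 0.53.

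The 11 replacement histone genes, most of whose mRNAs are polyadenylated, summed to 3177 to 3407 CPM in controls and 2651 to 2826 CPM in mutants. Of them 2 were called lower and none higher, beside 3.63% and 3.03% of all tested genes. Their median log2 fold change was -0.34, beside -0.01 over all tested genes. *Cenpa*, the H3 variant of centromeres, was measured at 71.3, 67.4 and 78.1 CPM in controls and 41.1, 38.4 and 40.9 CPM in mutants (log2 fold change -0.85 ± 0.0726 SE, edgeR adjusted p = 4.84e-05). *H2afz*, which encodes H2A.Z, stood at 346, 308 and 367 CPM in controls and 214, 226 and 214 CPM in mutants (-0.64 ± 0.0646 SE, adjusted p = 0.000127). The groups did not overlap for 8 of the 11 on the lower side and none on the higher side, against 20.1% and 20.4% of all tested genes. *H1f0*, a linker histone that accumulates in cells leaving the cycle, was lower by just less than the threshold (-0.50 ± 0.0578 SE, adjusted p = 0.000289), which it passed without control 1, control 2 or mutant 2, and *H1fx*, another linker histone, fell short too (-0.39 ± 0.0576 SE, adjusted p = 0.000997). The linker histones *H1f0* and *Hist1h1c* thus differed in opposite directions. The replacement H3 genes *H3f3a* and *H3f3b* were not called.

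Histone chaperones carry new histones to DNA. The median log2 fold change of the 22 tested was -0.35, beside -0.01 over all tested genes. None of the 22 was called higher, beside 3.03% of all tested genes, and 6 were called lower, beside 3.63%. They were *Asf1b* (-0.88 ± 0.144 SE, edgeR adjusted p = 0.00186), *Chaf1b* and *Chaf1a* of the assembly factor CAF-1 (-0.84 and -0.60), *Mms22l* (-0.81), *Nasp*, a chaperone of H3 and H4 (-0.57), and *Hjurp*, the loader of Cenpa (-0.51). The call of *Hjurp*, close to the fold threshold, was lost with library size alone, without control 1, without mutant 2 and with limma-trend on log2(FPKM + 1), and that of *Chaf1a* with the last of these. The groups did not overlap for 16 of the 22 on the lower side and 1 on the higher side, against 20.1% and 20.4% of all tested genes. Of the replication genes *Mcm2* to *Mcm7* and *Pcna*, 5 of 7 were called lower, beside the same 3.63%. Their median log2 fold change was -0.68. *Mcm6* was measured at 181, 181 and 186 CPM in controls and 106, 102 and 101 CPM in mutants.

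**Figure D5:**
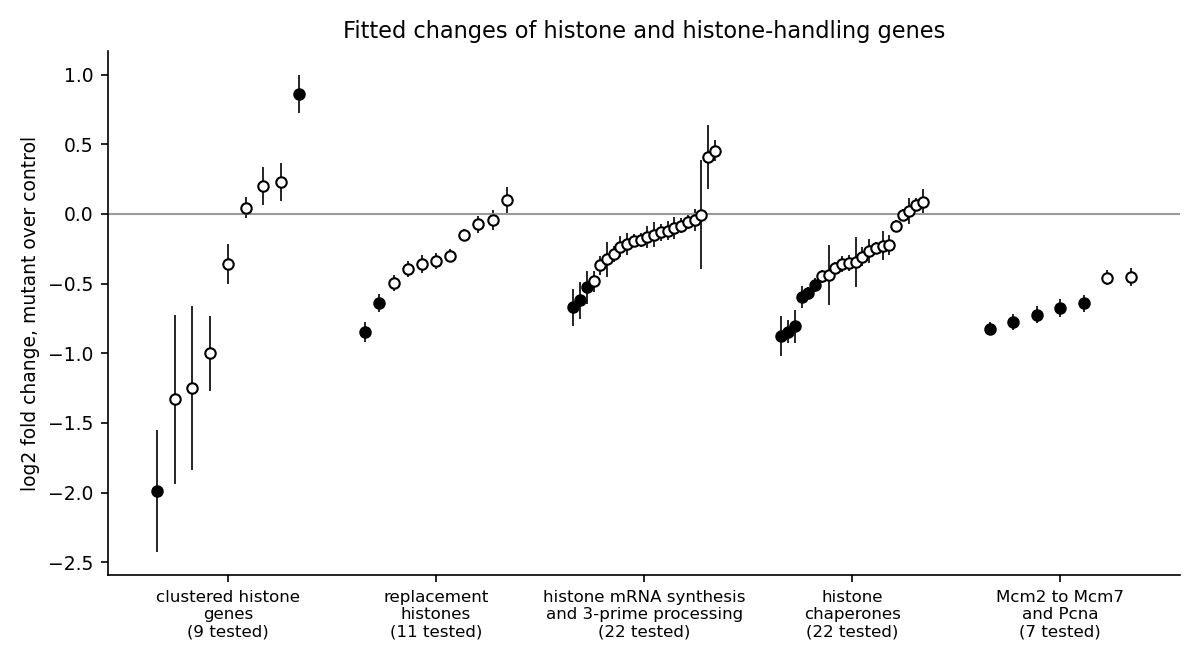
Log2 fold change of mutants over controls with bars of 1 SE for the tested genes of each list, ordered by value within a list; filled points were called and open points were not. The 9 clustered histone genes span -1.99 to 0.86, whereas all 7 of Mcm2 to Mcm7 and Pcna lie between -0.82 and -0.46.

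Markers of the cell types in the tissue differed between the same libraries. Across all tested genes, 3.63% were called lower and 3.03% higher. Of 8 markers of the granule lineage, 6 were called lower and their summed level was 3378 to 3530 CPM in controls and 2137 to 2271 CPM in mutants. Called higher were 4 of 6 Purkinje cell markers, 2 of 5 of astroglia, 5 of 6 of the oligodendrocyte lineage, 1 of 6 of microglia and 3 of 5 of the meninges, whose sums were 1118 to 1198 against 1584 to 1917, 3010 to 3082 against 4054 to 4331, 469 to 507 against 621 to 666, 86.5 to 89.3 against 107 to 124 and 348 to 371 against 526 to 627 CPM. Not all markers of these lists rose. In the oligodendrocyte list 1 of 6 was fitted lower, at a log2 fold change of -0.45, with every mutant below every control. In the meningeal list 2 of 5 were fitted lower, the lowest at -0.16. None of the choroid plexus (0 of 5), erythroid (0 of 5 tested), endothelial (0 of 5) and testis markers (0 of 1 tested) was called. No library of one group entered the other's range in the granule, Purkinje, astroglial, oligodendrocyte, microglial or meningeal sum. Among single tested genes, the groups did not overlap for 20.1% on the lower side and 20.4% on the higher side. The part of cell composition in the histone values was not tested.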

How the data were processed

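RNA-seq counts of 3 control and 3 mutant cerebella libraries were grouped by their labels. The authors aligned reads to mm10 with HISAT2 2.0.5 and counted them with featureCounts 1.5.0-p3, per the submitters' processing notes, and deposited raw counts per gene. The authors also deposited FPKM values, which allow for gene length and were used to rank genes. Annotation release, strand setting and treatment of multiply mapped reads are not given in the sources used here.

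Counts were fitted with edgeR 4.0.16 in R 4.3.3 (filterByExpr, TMM, glmQLFit, glmQLFTest) on all genes, with Benjamini-Hochberg adjustment over 17505 tested genes. A call needed an adjusted p under 0.01 with a log2 fold change of more than 0.5 in size. CPM are counts scaled by the TMM-adjusted library total, and 3 counts equalled 0.173 to 0.196 CPM. The smallest two-sided p that permuting 3 against 3 libraries allows is 0.1, and the p-values rest on the model. Same-group libraries differed by a chi-square of 3.64 to 10.1 per gene, so none was a copy. Transcripts of GENCODE M21 were searched for stem-loops, poly(A) signals and 150-base windows shared with other genes on either strand.

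Named genes were *Tox3* and *Atoh1*; called members; in each class the 2 of highest FPKM and the 2 of smallest p; tested members outside chromosome 13; untested members where counted; and of each other list at most 4 of smallest p or any whose call changed. *H3f3a*, *H3f3b*, *Tnp1*, *Prm2*, *Ttr* and *Trim17* were named outside this rule, after their values were seen. Members and lists were chosen with earlier results of these data known. Alternatives were DESeq2 1.42.0, its size factors, library size alone, other filters, a block for the replicate number, leaving out each library, Y-gene level as a covariate, limma-trend (limma 3.58.1) on FPKM at pseudocounts of 1 and 0.1 before log2, an adjusted p under 0.05 with no fold threshold, and glmTreat. Class sums without *Hist1h4n* and without genes sharing at least 50% of windows were chosen after seeing the data. Fits were tested on simulated data.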

Additional observations from a re-analysis of the deposited data

How the results depend on the processing

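The clustered genes called lower numbered 1, and 2 with no filter on low counts, with the Y-gene covariate or at an adjusted p under 0.05 with no fold threshold. They numbered 0 with DESeq2, with at least 10 counts in every library, with glmTreat and without any 1 library (range 0 to 0). With the filter at 10 counts *Hist1h3c* was not tested, and DESeq2 gave it no adjusted p. The number called higher was 1, 0 with glmTreat, and 0 to 1 with a library left out. The median log2 fold change was -0.59 with DESeq2 and -0.58 with no filter, each over 56 members in place of 9. It was 0.13 with at least 10 counts in every library, where 6 members were tested. With a library left out it was -1.003 to -0.32, over 10 to 13 members. These medians thus cover different genes. Without the member of highest count, the log2 ratio of class sums was -0.55 for H1, -0.55 for H2A, -0.20 for H2B and -1.42 for H3. With tested members alone it was -2.01 for H3. Class sums without *Hist1h4n* or without genes of shared windows moved by less than the spread between libraries.

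Replacement histones called lower numbered 8 at an adjusted p under 0.05 and 1 with glmTreat. Processing genes called lower numbered 0 with limma-trend on log2(FPKM + 1), log2(FPKM + 0.1) and glmTreat, 9 at an adjusted p under 0.05, where 1 was higher, and 0 to 3 with a library left out, where 0 to 1 was higher. Chaperones called lower numbered 14 at an adjusted p under 0.05 and 0 with glmTreat. The cause of these shifts was not tested.

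Libraries of the same number correlated at 0.29, 0.33 and -0.17 in their deviations from the group means. Mutant 1 and mutant 2 each correlated best with the control of the same number, whereas control 1 correlated best with mutant 3 (0.30). With so few libraries, these values do not settle whether the numbers pair the samples. With the replicate number as a block, 1 clustered gene was lower and 1 higher, the median was -0.35, and replacement, processing and chaperone genes called lower numbered 2, 3 and 6. Over all tested genes the block moved the calls from 635 lower and 530 higher to 696 and 561. At these counts 58 of 67 clustered genes did not pass the filter of the main fit.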
